A study of Saccharomyces cerevisiae with 28 samples.

Results

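The 9 genes described here encode the transcription factors that set carbon-source use and respiration in budding yeast: HAP1, HAP2, HAP3, HAP4, HAP5, ADR1, CAT8, SIP4 and MIG1. They were picked by their standard names and linked by systematic name to a table of 6692 open reading frames (ORFs), in which all 9 were found. In the R64 build the subunit genes are HAP2 (YGL237C, chrVII:52731-53528, -), HAP3 (YBL021C, chrII:181660-182094, -), HAP4 (YKL109W, chrXI:232227-233891, +) and HAP5 (YOR358W, chrXV:1010161-1010889, +). HAP1 is YLR256W (chrXII:646415-650923, +) and MIG1 is YGL035C (chrVII:431548-433062, -). The Snf1-branch activators are ADR1 (YDR216W, chrIV:895035-899006, +), CAT8 (YMR280C, chrXIII:827028-831329, -) and SIP4 (YJL089W, chrX:265926-268415, +). The study measured poly(A)+ RNA of Saccharomyces cerevisiae by sequencing 28 libraries in 14 groups, and its text names copper utilization as the property tested. All strains were BY4741, a MATa laboratory strain of the S288C family. They carried wild-type histone H3 (WT) or H3H113N, an allele that replaces a histidine of H3 with asparagine. Some also lacked CTR1, the high-affinity copper importer of the plasma membrane (dCtr1), or CCS1, whose product hands copper ions to Sod1, a superoxide dismutase (dCcs1).

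WT and H3H113N were grown in YPD, which holds glucose, in YPEG, which holds ethanol and glycerol, and in SC, a synthetic complete medium with glucose. dCtr1 and H3H113N-dCtr1 were grown in YPD. dCcs1 and H3H113N-dCcs1 were grown in SC, in SC-lys (SC lacking lysine), and in SC-lys with 75 µM CuSO4. WT and H3H113N had 3 libraries each in SC, the copper groups had 1 each, and every other group had 2. From a starting OD600 of 0.2, the YPD and YPEG cultures passed through 3 to 4 doublings; from 0.05, those in SC passed through 5, and the SC-lys cultures were kept 24 h from 0.4. Time in culture often differed between strains. Growth was labelled exponential except in SC-lys and in the H3H113N-dCcs1 library with copper, where it was labelled very slow or not exponential. Whether a strain was 1 clone, and whether replicates were separate cultures, is not stated in the labels, so p-values measure the spread between libraries, which may be technical.

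Hap2, Hap3 and Hap5 form a heterotrimer that binds the CCAAT box, and Hap4 is the regulated subunit that gives the complex its activation domain; its targets include cytochrome and tricarboxylic acid cycle genes. Hap1 is a heme-responsive activator of cytochrome and sterol genes, and strains of the S288C family carry a Ty1 element near the 3′ end of HAP1 that lowers its function. Adr1, Cat8 and Sip4 activate genes of ethanol, acetate, lactate and fatty acid use and of gluconeogenesis once the Snf1 kinase is active, and CAT8 itself is a target of Mig1, the zinc-finger repressor that holds these genes down in glucose. SIP4 is known to be switched on by Cat8.

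The upstream sequences of SIP4, CAT8 and HAP4 are shown because the letters known to be read by these factors were searched there, and because SIP4 differed between media and H3 alleles, CAT8 is its known activator and HAP4 encodes the regulated subunit of its complex. Each is the 300 bases before the ORF, 5′ to 3′ on the coding strand, from RefSeq R64. The SIP4 window is chrX:265626-265925 (+), the CAT8 window chrXIII:831330-831629 (-) and the HAP4 window chrXI:231927-232226 (+). Capitals mark the matches described in the next paragraph, on either strand.
SIP4: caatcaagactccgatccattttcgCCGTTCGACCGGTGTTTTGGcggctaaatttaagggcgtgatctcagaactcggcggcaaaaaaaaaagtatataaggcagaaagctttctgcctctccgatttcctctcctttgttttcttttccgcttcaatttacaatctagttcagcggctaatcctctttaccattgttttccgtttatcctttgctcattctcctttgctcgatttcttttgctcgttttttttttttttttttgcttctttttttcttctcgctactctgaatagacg
CAT8: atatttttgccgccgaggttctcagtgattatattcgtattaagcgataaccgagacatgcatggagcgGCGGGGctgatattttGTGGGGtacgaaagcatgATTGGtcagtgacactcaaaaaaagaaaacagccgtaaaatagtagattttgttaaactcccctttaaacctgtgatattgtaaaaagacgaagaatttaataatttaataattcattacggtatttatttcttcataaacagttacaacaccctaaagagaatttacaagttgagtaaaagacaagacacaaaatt
HAP4: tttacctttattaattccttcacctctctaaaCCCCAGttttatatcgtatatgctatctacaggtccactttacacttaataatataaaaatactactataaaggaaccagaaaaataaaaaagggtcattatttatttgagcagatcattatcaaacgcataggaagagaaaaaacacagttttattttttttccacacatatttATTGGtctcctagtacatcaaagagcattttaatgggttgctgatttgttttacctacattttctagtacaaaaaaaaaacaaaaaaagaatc

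Both strands were searched for CCAAT (Hap2/3/4/5), for the Mig1 letters (GCGGGG, its variant GTGGGG, the related CCGGGG and, as the last form, CTGGGG), for the carbon source-responsive element of Cat8 and Sip4 (CC and CCG with any 6 bases between) and for TTGGAG or TTGGGG (Adr1). SIP4 held 2 matches to the Cat8 and Sip4 letters, on opposite strands and sharing 2 bases, and these letters occur in 11.1% of the windows of 6001 ORFs. CAT8 held 2 matches to the Mig1 letters, found in 12% of windows, and 1 CCAAT box on the reverse strand, found in 41.8%. HAP4 held 1 match of each of these 2 kinds. Among the other members, HAP3 and ADR1 each held 1 CCAAT box and MIG1 held 2 matches to the Mig1 letters. HAP1, HAP2 and HAP5 held none of the 4 kinds, and no member held the Adr1 letters, which occur in 15.2% of windows. A match describes letters in the window, not a bound site.

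Total counts ran from 1168159 to 6738018 per library, with a median of 4435440. CTR1 had at most 1 read in the 4 libraries lacking it and CCS1 at most 1 read in the 10 lacking it, against at least 52 and 106 reads elsewhere. MFA1, an a-factor gene expressed in MATa cells, had 5 to 213 reads. Of its counterparts of the other mating type, MF(ALPHA)1 had 0 to 49 and MF(ALPHA)2 5 to 94. In reads, not scaled to ORF length, MF(ALPHA)1 exceeded MFA1 in both H3H113N-YPEG libraries (49 and 17 against 32 and 5). Scaled to ORF length and library reads (RPKM), MFA1 was the higher there, at 63.3 and 22.5 against 21.6 and 17.1. MF(ALPHA)2 exceeded it in both H3H113N-dCtr1 libraries (28 and 31 against 15 and 14). These low counts do not settle the mating type of each library. WT-SC replicate 3 correlated least with its own group (mean r = 0.88 on the log scale), and results that rest on it are given with and without it. YPD and SC-lys libraries were made with a KAPA kit and YPEG and SC libraries with a TruSeq kit, so kit and medium cannot be told apart between YPD and YPEG, between YPD and SC, or between SC and SC-lys, while YPEG and SC share a kit. In bulk RNA, fewer cells expressing a gene and less RNA per cell cannot be told apart.

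Levels are given as RPKM, reads per kilobase of ORF scaled to the counted reads of the library, which allows comparison between genes. HAP4 had the highest median over the 28 libraries, 157 RPKM, and SIP4 the lowest, 2.60 RPKM. The spread of group means separated the members: the highest group mean of HAP1 was 1.53 times its lowest, whereas SIP4 ranged from 0.441 RPKM in WT-YPD to 55.4 RPKM in H3H113N-YPEG. The lowest libraries of SIP4 had 3 reads and the highest 664, so its glucose levels rest on few reads. Windows of 50 bases of the 9 ORFs were unique in the genome, except that 98.8% of those of HAP1 were, and none of the 9 overlaps another annotated ORF.

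**Figure D1:**
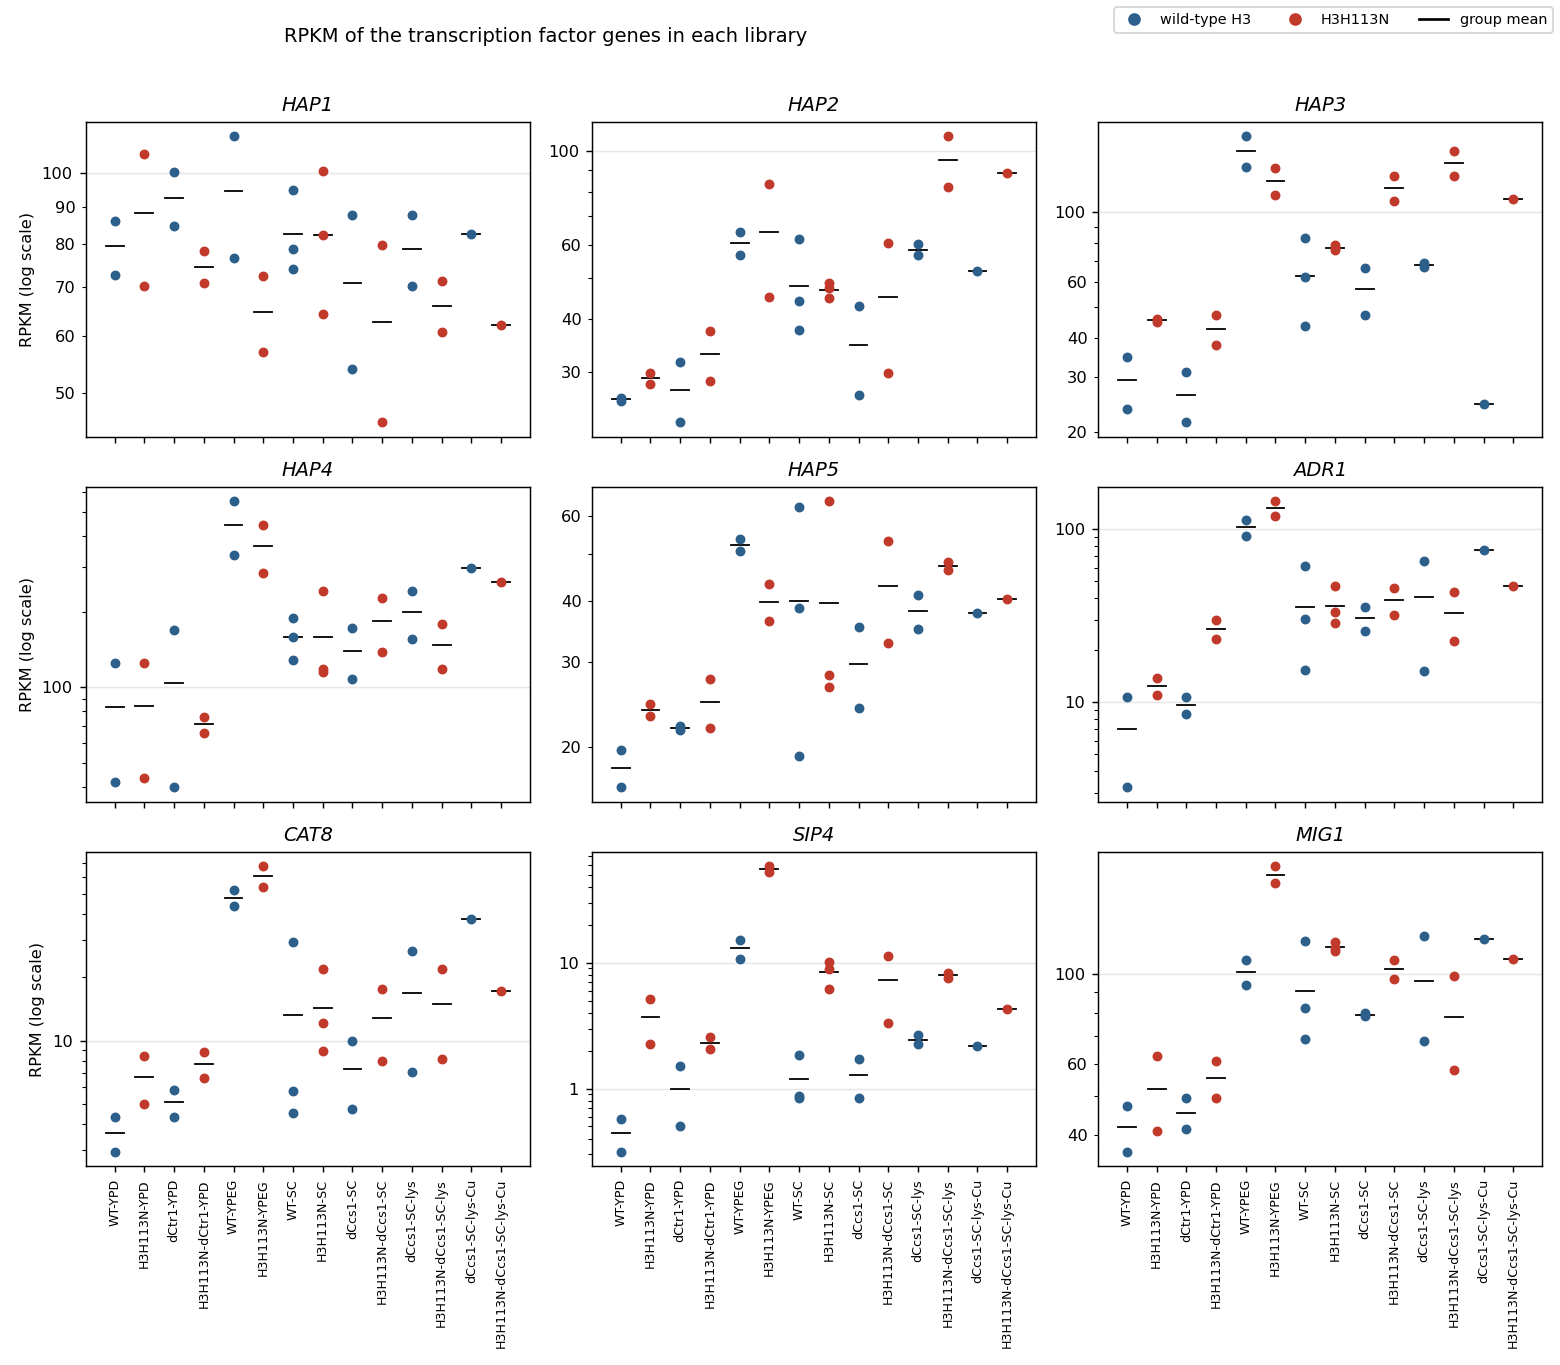
Each panel plots 1 gene, with the 14 groups on the x axis and RPKM on a log y axis; points are libraries, blue for wild-type H3 and red for H3H113N, and bars are group means. SIP4 stands higher in H3H113N than in the parent strain in every pair of groups, and the YPEG groups are the 2 highest for HAP4, ADR1, CAT8 and SIP4.

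HAP4, the activating subunit, stood highest in ethanol and glycerol. Its RPKM was 550.3 and 336 in WT-YPEG, 125 and 41.7 in WT-YPD, and 158, 128 and 189 in WT-SC, so the YPEG libraries lay above all WT glucose libraries, while the 2 YPD libraries stood far apart from each other. HAP4 rose in YPEG against YPD in WT by 1.89 (log2, SE 0.66, edgeR adjusted p = 0.0418), and 27.2% of all ORFs passed in that comparison. That call was lost without WT-YPD replicate 2 (1.35, edgeR adjusted p = 0.284), without WT-YPEG replicate 1 (1.55, 0.189) and without WT-YPEG replicate 2 (2.16, 0.0638), and without WT-YPD replicate 1 the estimate was 2.76. Against SC, within 1 kit, the difference was 1.27 (SE 0.58) and did not pass (edgeR adjusted p = 0.173).

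The DNA-binding subunits had lower medians over all libraries than HAP4 (45.1 RPKM for HAP2, 68.0 for HAP3 and 35.2 for HAP5) and differed in their response. HAP3 was 139.6 and 174 RPKM in WT-YPEG, 34.7 and 23.7 in WT-YPD, and 43.4, 82.6 and 62.1 in WT-SC, with no overlap between YPEG and either glucose medium. It rose in YPEG by 1.89 against YPD (SE 0.26, edgeR adjusted p = 9.14e-05) and by 1.16 against SC (SE 0.23, edgeR adjusted p = 0.00272), where 11.5% of all ORFs passed. The second call was lost without WT-YPEG replicate 2 (0.93, edgeR adjusted p = 0.0543) and when only the groups compared were fitted (1.16, 0.220). HAP2 was 56.8 and 64.2 RPKM in WT-YPEG against 25.7 and 26.1 in WT-YPD, and HAP5 53.6 and 50.8 against 16.5 and 19.7. These groups did not overlap in RPKM, as in 8 of the 9 members, and the share of all ORFs without overlap was not counted. Neither gene passed (HAP2 0.67, edgeR adjusted p = 0.138, and HAP5 0.96, 0.102). The median of all ORFs lay at 0.02 in this fit and at 0.58 when libraries were scaled by their totals alone, as RPKM is. With that scaling HAP2 was called at 1.22 and HAP5 at 1.52 (edgeR adjusted p = 0.0110 and 0.0120), and the share of called ORFs that were higher in YPEG moved from 51.4% to 85.4%. The ratio of HAP4 to the mean of HAP2, HAP3 and HAP5 was 5.04 ± 2.21 (SD, n = 2) in WT-YPEG, 3.37 ± 1.24 (n = 3) in WT-SC and 3.33 ± 2.17 (n = 2) in WT-YPD, ranges that overlap.

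HAP1 was the flattest member. It had 112 and 76.7 RPKM in WT-YPEG and 86.2 and 72.7 in WT-YPD, and every pair of neighbouring groups in its order of levels overlapped or held a single library. In WT its change from YPD to YPEG was -0.30 (SE 0.29, edgeR adjusted p = 0.468), with the sign turning to 0.25 under scaling by library totals. In H3H113N, HAP1 was 106 and 70.1 RPKM in YPD and 57.0 and 72.3 in YPEG, values that overlap. Its difference there, -0.82 (SE 0.29, edgeR adjusted p = 0.0468), just passed, as did 25.9% of all ORFs. It no longer passed without H3H113N-YPD replicate 1 (-0.49, edgeR adjusted p = 0.314), without H3H113N-YPEG replicate 1 (-0.71, 0.262) or without H3H113N-YPEG replicate 2 (-0.95, 0.0921), nor with library totals (-0.45, 0.283), with limma (-0.42, 0.309), with chromosomes centred (-0.80, 0.0522) or with only the groups compared (-0.85, 0.0616).

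The activators of the Snf1 branch showed the widest range between media. ADR1, the activator of alcohol dehydrogenase and peroxisomal genes, had 91.7 and 114 RPKM in WT-YPEG, 10.8 and 3.23 in WT-YPD, and 15.4, 30.2 and 60.9 in WT-SC. CAT8 had 51.9 and 43.9 RPKM in WT-YPEG, 4.34 and 2.94 in WT-YPD, and 4.51, 5.73 and 29.6 in WT-SC. For both genes the YPEG libraries lay above all glucose libraries, and WT-SC replicate 3 lay far above the other SC libraries. In YPEG against YPD, ADR1 rose by 3.38 (SE 0.66, 10.4-fold, edgeR adjusted p = 0.00128) and CAT8 by 3.18 (SE 0.80, 9.05-fold, edgeR adjusted p = 0.00658). Without WT-YPD replicate 1 the ADR1 estimate was 4.36, and without WT-YPD replicate 2 CAT8 did not pass (3.00, edgeR adjusted p = 0.0693). In YPEG against SC neither passed (ADR1 1.35, SE 0.54, edgeR adjusted p = 0.119; CAT8 1.68, SE 0.66, 0.115). Without WT-SC replicate 3 both were called, ADR1 at 2.01 and CAT8 at 3.05 (edgeR adjusted p = 0.0184 and 0.00231).

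SIP4 followed the same order from a lower base. It had 15.2 and 10.7 RPKM in WT-YPEG, 0.569 and 0.313 in WT-YPD, and 0.878, 0.849 and 1.85 in WT-SC. The YPEG libraries held 200 and 62 reads and the glucose libraries 3 to 8, and the groups did not overlap. SIP4 rose in YPEG by 4.33 against YPD (SE 0.57, 20.1-fold, edgeR adjusted p = 6.31e-05) and by 3.30 against SC (SE 0.49, 9.85-fold, edgeR adjusted p = 0.000219). These calls held in 13 of 13 and 14 of 14 alternatives; on the log2(RPKM + 1) scale of limma, which shrinks low values, the estimates were 3.26 and 2.68. Of the 9 members, HAP3 and SIP4 passed in the single-kit comparison of WT, where 11.5% of all ORFs passed. HAP3, HAP4, ADR1, CAT8 and SIP4 passed in the comparison across kits, where 27.2% of all ORFs did.

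In H3H113N strains ADR1, CAT8 and SIP4 again stood highest in YPEG. From SC to YPEG, ADR1 rose by 1.86 (SE 0.54, edgeR adjusted p = 0.0357), CAT8 by 2.10 (SE 0.66, edgeR adjusted p = 0.0495) and SIP4 by 2.74 (SE 0.40, edgeR adjusted p = 0.000301), in a comparison in which 10.9% of all ORFs passed. ADR1 and CAT8 lost the call without either YPEG library and without SC replicate 1 or 2, when ADR1 was 1.66 to 2.04 and CAT8 1.86 to 2.30; CAT8 also lost it with library totals (2.09) and with chromosomes centred (2.07). From YPD to YPEG, where 25.9% of all ORFs passed, the called rises in H3H113N were ADR1 3.05, CAT8 2.83, SIP4 3.56, HAP3 1.09 and MIG1 1.39. Of these, CAT8 was not called without H3H113N-YPD replicate 1 (3.25), H3H113N-YPD replicate 2 (2.49) or H3H113N-YPEG replicate 1 (2.59), MIG1 not without H3H113N-YPD replicate 1 (1.12), and SIP4 was 4.26 without H3H113N-YPD replicate 1. HAP4 was 1.76 and missed the threshold (SE 0.66, edgeR adjusted p = 0.0568), but passed without H3H113N-YPD replicate 1 (2.71, 0.0459) and by DESeq2 (1.74, 0.0241), and HAP2 passed without H3H113N-YPEG replicate 2 (1.21, edgeR adjusted p = 0.0211).

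MIG1, the glucose repressor, had its lowest group means in YPD, in all 4 strains. It had 108 and 93.4 RPKM in WT-YPEG, 36.3 and 47.3 in WT-YPD, and 82.1, 68.8 and 120 in WT-SC, so YPEG and SC overlapped and YPD lay below both. Neither WT difference passed (0.70 against YPD, SE 0.31, edgeR adjusted p = 0.108; -0.04 against SC, SE 0.28, 0.951). With library totals the first was called at 1.27 (edgeR adjusted p = 0.00499), and the small SC difference turned to 0.16 with library totals and 0.08 with chromosomes centred. Its H3H113N-YPEG libraries, at 167 and 184 RPKM, were the highest of all 28.

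Between SC and YPD in WT, ADR1 alone passed, at 2.02 (SE 0.60, edgeR adjusted p = 0.0440), where 8.37% of all ORFs passed. The call was lost with only the groups compared (1.97, edgeR adjusted p = 0.381) and without WT-YPD replicate 1 (2.98, 0.0623), WT-YPD replicate 2 (1.42, 0.366), WT-SC replicate 2 (2.14, 0.0522) or WT-SC replicate 3 (1.37, 0.209). A replicate block also ended the ADR1 call (1.48, edgeR adjusted p = 0.129), though pairing by replicate number was not settled. Without WT-SC replicate 1, HAP3 (0.94, edgeR adjusted p = 0.0164) and HAP5 (1.10, 0.0481) passed beside ADR1. From SC to SC-lys, 0 members passed in dCcs1 by edgeR (1 at unadjusted p under 0.05; 0 by DESeq2 and 0 by limma), against 6.04% of all ORFs. In H3H113N-dCcs1, HAP2 passed at 1.03, against 13.6% of all ORFs; its RPKM was 82.2 and 108 in SC-lys and 29.9 and 60.4 in SC. That call was lost without H3H113N-dCcs1-SC replicate 1 (0.68), without H3H113N-dCcs1-SC-lys replicate 1 (1.19) or 2 (0.84), and with only the groups compared.

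**Figure D2:**
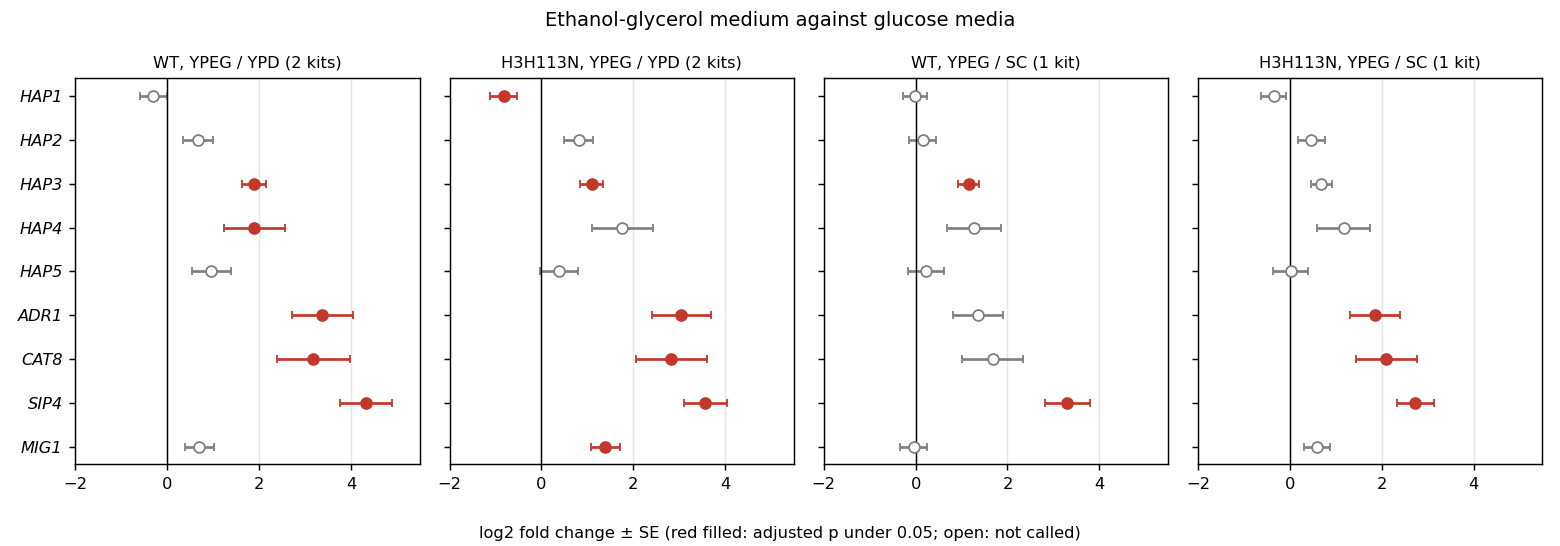
Points are log2 fold changes of the 9 genes in YPEG against a glucose medium, with SE as bars; red filled points passed an adjusted p of 0.05. SIP4 passed in all 4 panels, at 2.74 to 4.33, and HAP1 lay between -0.82 and -0.01, or up to 0.25 with library totals.

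Textbook targets of the factors moved with the medium in WT. Of 9 targets of Cat8 and Sip4, 8 rose in YPEG against SC, against 6.75% of all ORFs called higher, with a list median of 5.23 against -0.07 for all ORFs. PCK1, the phosphoenolpyruvate carboxykinase of gluconeogenesis, rose by 8.0 (SE 0.43, edgeR adjusted p = 1.85e-09), SFC1, the mitochondrial succinate-fumarate carrier, by 6.94 (SE 0.53, 1.15e-07), and MLS1, the malate synthase of the glyoxylate cycle, by 6.50 (SE 0.56, 5.46e-07). MDH2, the cytosolic malate dehydrogenase, was at -0.46 and was not called. Of 10 Adr1 targets 7 rose (median 1.38), among them ADY2, an acetate transporter (2.97), POX1, the peroxisomal acyl-CoA oxidase (2.68), and ACS1, an acetyl-CoA synthetase that the Cat8 list also holds (2.43). Of 11 Hap2/3/4/5 targets 9 rose (median 2.06), among them CYC1, cytochrome c (2.93), CYT1, cytochrome c1 (2.35), and ACO1, aconitase (2.28). CYT1 was not called without WT-YPEG replicate 2, nor ACO1 without WT-YPEG replicate 2, WT-SC replicate 1 or WT-SC replicate 2. Leaving out each of the 5 libraries in turn left 8 Cat8 and Sip4 targets, 3 to 6 Adr1 targets and 6 to 11 Hap2/3/4/5 targets called higher, with the fewest of the last 2 lists without WT-YPEG replicate 2 and, for Adr1 targets, also without WT-SC replicate 1.

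The other lists held fewer or mixed calls in YPEG against SC. Of 9 Hap1 targets 4 rose and 1 fell: CYC1 and CYT1, which the Hap2/3/4/5 list shares, ROX1, the repressor of hypoxic genes (2.88), and YHB1, flavohemoglobin (1.10), rose, and HMG1, an HMG-CoA reductase, fell by 1.01; YHB1 was named after its value was seen. Without WT-YPEG replicate 2, CYT1, YHB1 and HMG1 were not called, and YHB1 was not called without WT-SC replicate 2. Of 6 Mig1 targets 2 fell, the hexose transporter genes HXT4 (-6.64, SE 1.54) and HXT2 (-3.59, SE 0.99), against 4.72% of all ORFs called lower; without WT-YPEG replicate 1 or 2 neither was called, and HXT2 was not without WT-SC replicate 2. Of 15 genes of the glucose-signal kinase and repression, 5 fell: MIG2 (-2.69) and MIG3 (-2.37), which encode repressors related to Mig1, HXK2, hexokinase (-1.71), and, named after their values were seen, the Snf1-activating kinase gene TOS3 (-1.63) and the Snf1 subunit gene SNF4 (-0.79). None of the 5 was called without WT-YPEG replicate 2, and in MIG2, TOS3 and SNF4 other single libraries also ended the call, and with library totals 3 genes of this list passed. Of 7 other carbon-source and heme factors only ROX1 passed. The share of called ORFs that were higher was 58.9% in this comparison and 77.2% with library totals.

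The H3H113N allele was compared with its parent strain in 6 settings, each within 1 medium and 1 kit: WT in YPD, YPEG and SC, dCtr1 in YPD, and dCcs1 in SC and SC-lys. SIP4 was the only member that passed in any single setting by edgeR. In YPD it had 5.12 and 2.24 RPKM in H3H113N against 0.569 and 0.313 in WT, in YPEG 58.5 and 52.2 against 15.2 and 10.7, and in SC 6.23, 8.94 and 10.1 against 0.878, 0.849 and 1.85. In dCtr1 strains it had 2.56 and 2.05 against 1.5 and 0.501, in dCcs1 strains in SC 3.33 and 11.2 against 0.849 and 1.72, and in SC-lys 7.63 and 8.32 against 2.24 and 2.65. The H3H113N libraries lay above the parent libraries in 6 of 6 settings, with no overlap in any. Among the 9 members, 6 did not overlap in YPD, 7 in YPEG and 1 in SC, in either direction. The counts were 5 with dCtr1, 3 with dCcs1 in SC and 4 with dCcs1 in SC-lys. The share of all ORFs without overlap was not counted, so lack of overlap was not read as support.

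By edgeR, SIP4 was called higher in H3H113N in YPD (2.84, SE 0.59, adjusted p = 0.0214), in YPEG (2.07, SE 0.43, 0.0290) and in SC (2.64, SE 0.48, 0.00861). The shares of all ORFs called were 1.24% in YPD, 1.03% in YPEG and 1.59% in SC, and no other member passed in these settings. In the deletion strains it did not pass: 1.06 with dCtr1 (SE 0.52, edgeR adjusted p = 0.415), 2.27 with dCcs1 in SC (SE 0.56, 0.0542) and 1.39 with dCcs1 in SC-lys (SE 0.45, 0.0570), where 2.18%, 1.24% and 10.7% of all ORFs passed. By DESeq2 the last 2 were called (adjusted p = 0.00819 and 0.0279), as they were with library totals (2.53 and 1.70). A replicate block also called both (2.17 and 1.39, edgeR adjusted p = 0.0131 and 0.00673), though pairing by replicate number was not settled there. Without H3H113N-dCcs1-SC replicate 1 the SC value was 2.87. Averaged over the 6 settings, SIP4 was 4.12-fold higher (2.04, SE 0.21, edgeR adjusted p = 1.80e-06), where 33.8% of all ORFs passed, and the average kept its call in 34 of 34 alternatives, from 1.60 to 2.24.

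Calls in single settings rested on few libraries. In YPD the SIP4 call was lost without WT-YPD replicate 1 (3.21, edgeR adjusted p = 0.126), WT-YPD replicate 2 (2.53, 0.308) or H3H113N-YPD replicate 1 (2.14, 0.188), with limma (1.63) and with only the groups compared. In YPEG it was lost without any 1 of the 4 libraries (1.89 to 2.29, edgeR adjusted p up to 0.230), with library totals (2.08) and with limma (2.03). In SC it was lost without WT-SC replicate 1 (2.40, edgeR adjusted p = 0.060) and with only the groups compared. It was kept in the other 14 of 16 alternatives, among them a block that paired WT and H3H113N by replicate number.

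**Figure D3:**
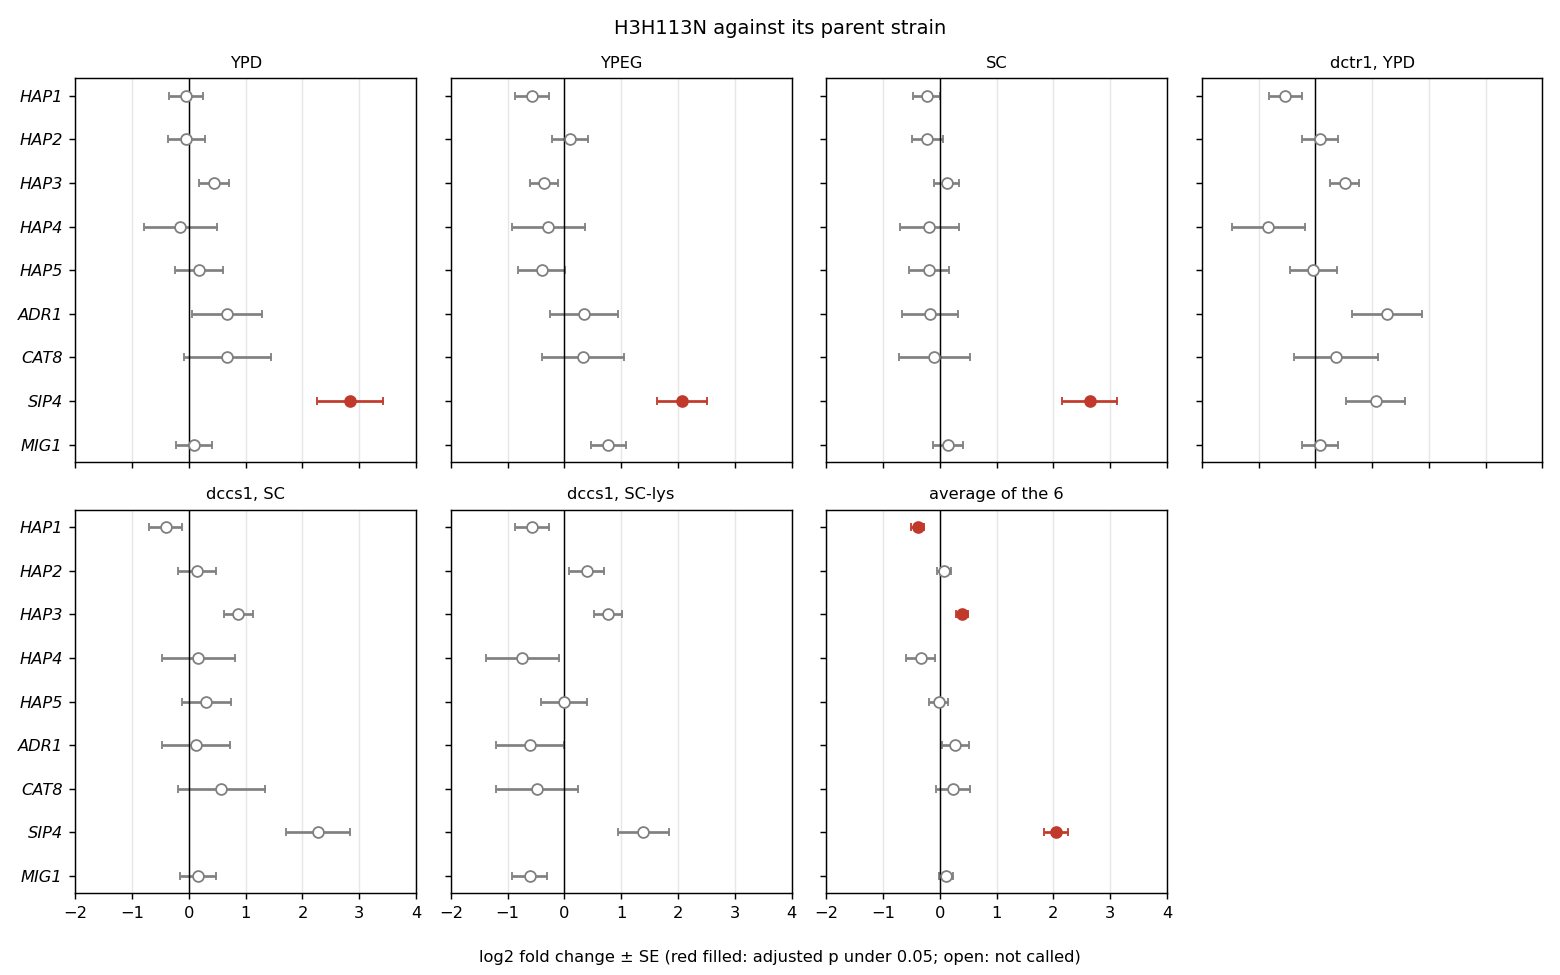
Points are log2 fold changes of H3H113N against its parent strain, with SE as bars, in 6 settings and averaged over them; red filled points passed an adjusted p of 0.05. SIP4 lies between 1.06 and 2.84 in the 6 settings and at 2.04 in the average, while CAT8 lies between -0.49 and 0.68.

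CAT8, the known activator of SIP4, did not pass in any setting. Its RPKM was 8.41 and 4.96 in H3H113N-YPD against 4.34 and 2.94 in WT-YPD, 67.7 and 53.7 against 51.9 and 43.9 in YPEG, and 8.93, 12.1 and 21.9 against 4.51, 5.73 and 29.6 in SC. The H3H113N libraries lay above WT in YPD and YPEG and overlapped WT in SC. The 6 differences ran from -0.49 to 0.68, with SE of 0.62 to 0.77, and the average was 0.23 (SE 0.29, edgeR adjusted p = 0.599). The ratio of SIP4 to CAT8 RPKM was 0.119 ± 0.0176 (SD, n = 2) in WT-YPD and 0.530 ± 0.111 in H3H113N-YPD, 0.269 ± 0.0351 and 0.918 ± 0.0762 in YPEG, and 0.135 ± 0.0670 and 0.632 ± 0.148 (n = 3) in SC. In dCtr1 strains the ratio was 0.216 ± 0.184 and 0.30 ± 0.0131, and in dCcs1 strains in SC 0.177 ± 0.00547 and 0.527 ± 0.159. In SC-lys it was 0.207 ± 0.152 and 0.659 ± 0.393. The libraries overlapped in the dCtr1 pair and stood apart in the other 5 pairs.

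**Figure D4:**
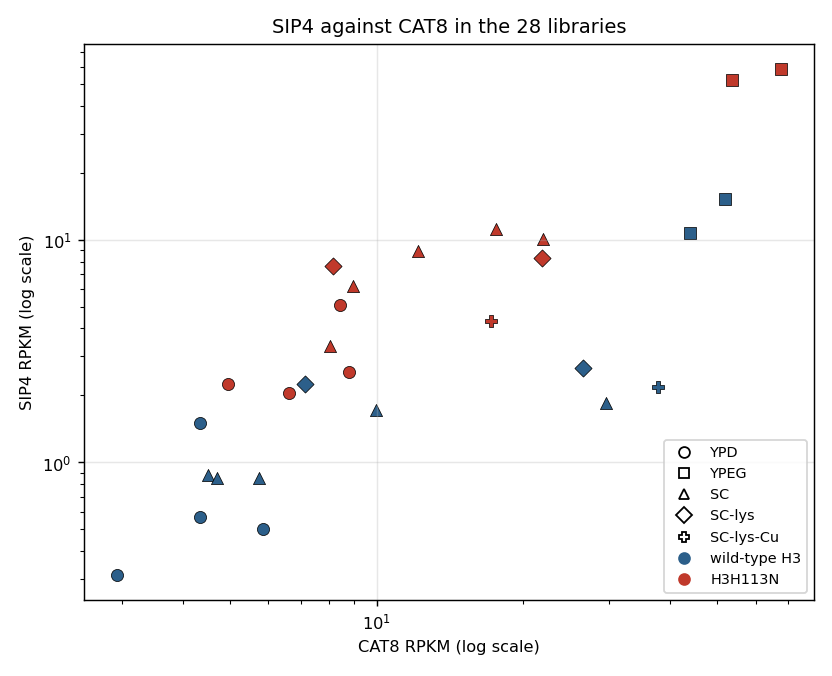
Each point is 1 of the 28 libraries, with CAT8 RPKM on the x axis and SIP4 RPKM on the y axis, both on log scales; the symbol gives the medium and the colour the H3 allele. In YPD and SC the red H3H113N points of strains without a deletion lie above all blue points of the same medium, and the YPEG squares lie at the upper right.

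HAP3 and HAP1 also passed in the average, so that 3 of 9 members were called, near the 33.8% of all ORFs. HAP3 was 0.39 higher (SE 0.10, edgeR adjusted p = 0.00645), but it lies on chromosome II, whose ORFs had a median of 0.47 in the same average, and with each chromosome centred it was -0.09 (edgeR adjusted p = 0.542). By setting, HAP3 was 0.44 in YPD, 0.12 in SC, 0.87 with dCcs1 in SC and 0.76 with dCcs1 in SC-lys, beside chromosome II medians of 0.41, 0.44, 0.72 and 0.72. With dCtr1 it was 0.52 beside a median of 0.10, and in YPEG -0.36 beside 0.30. None of these 6 values passed by edgeR; DESeq2 called the one in SC-lys (adjusted p = 0.0265), as did library totals (1.08). SIP4 lies on chromosome X, with a median of -0.04 in the average, and its centred value was 2.05. HAP1 was -0.39 (SE 0.12, edgeR adjusted p = 0.0141), below 0 in 6 of 6 settings but at 0.15 in YPD with library totals, and was not called with library totals (-0.19, 0.251) or limma (-0.19, 0.238).

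The remaining members did not pass in the average: HAP2 0.07 (SE 0.13), HAP4 -0.34 (SE 0.25), HAP5 -0.02 (SE 0.17), ADR1 0.27 (SE 0.24) and MIG1 0.11 (SE 0.12); HAP5 turned to 0.17 with library totals and 0.03 with chromosomes centred. In single settings ADR1 with dCtr1 stood at 29.7 and 23.1 RPKM against 10.7 and 8.53 (1.26, SE 0.61, edgeR adjusted p = 0.404), and MIG1 in YPEG at 167 and 184 RPKM against 108 and 93.4 (0.77, SE 0.31, edgeR adjusted p = 0.264). Both pairs of groups stood apart without overlap, as in 5 of 9 members with dCtr1 and 7 of 9 in YPEG. How many of all ORFs stood apart was not counted, so this was not read as support. Neither difference passed the test. HAP4 with dCtr1 was at -0.83 (SE 0.65, edgeR adjusted p = 0.742), where its dCtr1 libraries, at 39.9 and 168 RPKM, lay on either side of the H3H113N-dCtr1 values of 65.8 and 76.3.

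The deletions alone gave no call among the members. In dCtr1 against WT in YPD, 0 members passed by edgeR, 0 had an unadjusted p under 0.05 and 0 passed by DESeq2 or limma, and 0.0455% of all ORFs were called. In dCcs1 against WT in SC the same 4 counts were 0, beside 0.0152% of all ORFs. SIP4 was 1.5 and 0.501 RPKM in dCtr1-YPD, which overlapped WT-YPD, and 0.849 and 1.72 in dCcs1-SC, which overlapped WT-SC.

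Whether the H3H113N effect differed between settings was tested as 5 interactions, and 0 members passed in any by edgeR, DESeq2 or limma. The shares of all ORFs called were 0% (YPEG minus YPD), 0.0152% (YPEG minus SC), 0% (with dCtr1 minus without), 0% (with dCcs1 minus without) and 0.0455% (dCcs1 in SC-lys minus in SC). Unadjusted p was under 0.05 for 3 values: SIP4 with dCtr1 minus without (-1.78, SE 0.80), HAP3 in YPEG minus YPD (-0.80, SE 0.36) and HAP3 with dCcs1 minus without (0.75, SE 0.34), each with an edgeR adjusted p of 1. The smaller SIP4 effect in dCtr1 strains is therefore not shown to differ from that in WT.

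Targets of Cat8 and Sip4 were higher in H3H113N in the average, but few passed in single settings. By edgeR 1 of the 9 passed in each of YPD, YPEG and YPD with dCtr1, beside 1.24%, 1.03% and 2.18% of all ORFs. In SC, and with dCcs1 in SC or SC-lys, 0 passed, beside 1.59%, 1.24% and 10.7%. In the average 8 of the 9 passed, against 18.5% of all ORFs called higher. The list median was 0.77 against 0.00 for all ORFs. PCK1 was 0.66 (SE 0.16, edgeR adjusted p = 0.00401), SFC1 0.77 (SE 0.24, 0.0174) and MLS1 1.05 (SE 0.23, 0.00195). MDH2 was again not called, at -0.10. With each chromosome centred 6 passed, since ICL1 on chromosome V (0.77, centred 0.37) and JEN1 on chromosome XI (0.74, centred 0.59) did not. JEN1 also lost its call without most of the single libraries (0.64 to 0.99), while the other called targets kept theirs. Of 10 Adr1 targets 6 were higher, POT1, ADY2, ACS1, CTA1, SPS19 and POX1, and ADH2, the alcohol dehydrogenase that oxidizes ethanol, was lower (-0.45). POX1 (0.35 to 0.62) and ADH2 (-0.54 to -0.38) lost their calls without most of the single libraries, and SPS19 (0.42 to 0.62) without a few. The fewest targets were called higher without dCtr1-YPD replicate 2. The share of called ORFs that were higher was 54.9% in the average and 82.7% with library totals.

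The other lists gave few calls in the average, in both directions. The share of all ORFs called lower was 15.2%. Of 11 Hap2/3/4/5 targets 0 were higher and 2 lower by edgeR, near that share, LPD1 (-0.49) and COX4 (-0.41), both named after their values were seen, and the list median was -0.10; with library totals 0 passed, and COX4 was not called with chromosomes centred or without each of 9 single libraries. Of 9 Hap1 targets 2 were lower, YHB1 (-1.13) and HMG1 (-0.53), again not far from that share. Of 6 Mig1 targets GAL1, galactokinase, was higher (0.83), on chromosome II, and was still called with chromosomes centred, at 0.35 (edgeR adjusted p = 0.0130). Of the 15 kinase and repression genes HXK2 was lower (-1.04, SE 0.14, edgeR adjusted p = 2.79e-05) and SNF4 lower (-0.38), while ELM1 (0.41) and MIG3 (0.70) were higher; the last 2 were not called with chromosomes centred. Of the 7 other factors ERT1 on chromosome II (0.62), OAF1 on chromosome I (0.46) and PIP2 (0.34) were higher, and ERT1 and OAF1 fell to 0.14 and 0.12 once chromosomes were centred, beside medians of 0.47 and 0.32 for chromosomes II and I.

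**Figure D5:**
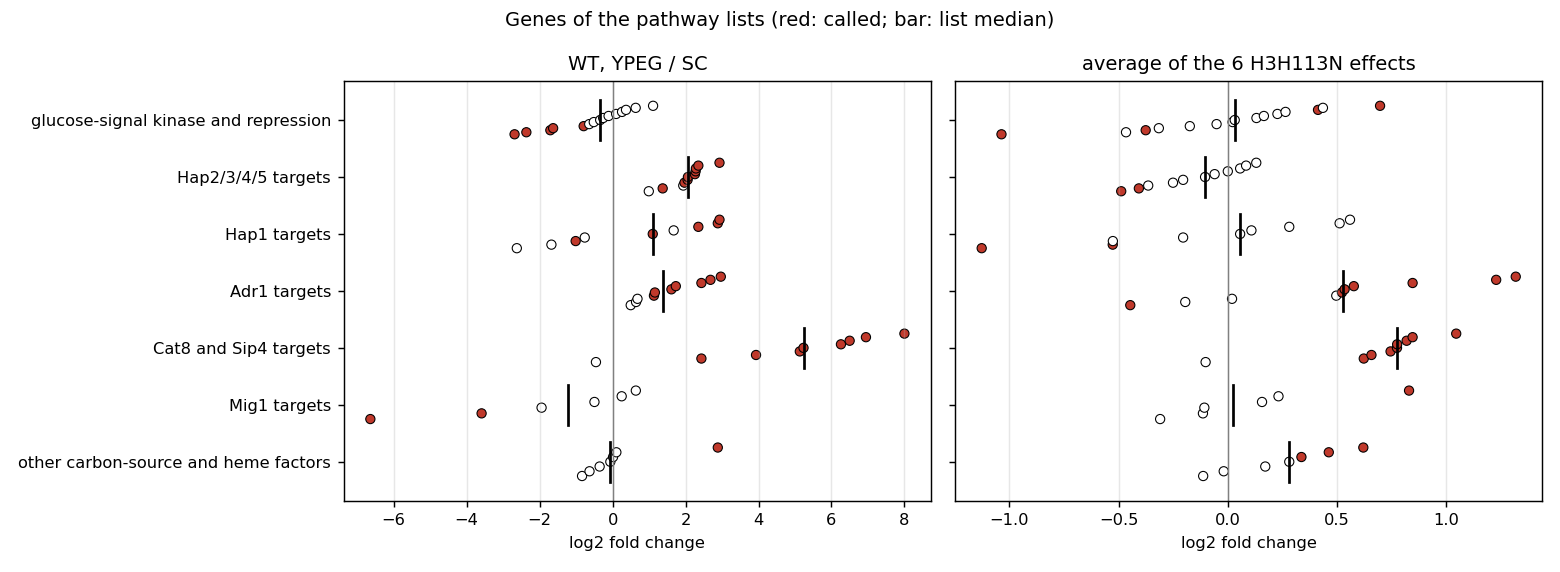
Points are the log2 fold changes of single genes in 7 lists, red where called, with the list median as a black bar; the left panel is WT in YPEG against SC and the right panel the average of the 6 H3H113N effects, on different x scales. Cat8 and Sip4 targets have medians of 5.23 on the left and 0.77 on the right, and Hap2/3/4/5 targets 2.06 and -0.10.

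In SC-lys, where 5.16% of all ORFs were called higher and 5.57% lower between H3H113N-dCcs1 and dCcs1, the lists held few calls. HXK2 was lower (-1.94, SE 0.36, edgeR adjusted p = 0.00302), as were YHB1 (-1.76, 0.00347) and HMG1 (-0.93, 0.0167). ELM1 (0.999), POT1 (1.22), GAL1 (1.5), OAF1 (1.21) and ERT1 (1.13) were higher, and these 5 were not called with chromosomes centred. Without dCcs1-SC-lys replicate 2 or H3H113N-dCcs1-SC-lys replicate 1, HXK2, YHB1 and ERT1 also lost their calls, and HMG1, ELM1 and POT1 did so without any 1 of the 4 libraries. Of the 9 Cat8 and Sip4 targets 0 passed by edgeR and 1 by DESeq2, with a median of 0.47. Their values ran from -0.92 (SFC1) to 1.10 (ACS1), with PCK1 at -0.57 and MLS1 at 0.47.

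Copper in SC-lys was followed in 1 library per strain, so the values are given with exact Poisson intervals, which cover counting error only, and with no test. HAP4 had 298 RPKM (286 to 310.0) in dCcs1 with copper against 156 and 243 without, and 263 (252 to 273) in H3H113N-dCcs1 against 118 and 178, above both libraries without copper in both strains. HAP3 had 24.6 RPKM (18.5 to 32.2, 53 reads) in dCcs1 with copper against 67.1 and 68.9, and 110.1 (97.3 to 124) in H3H113N-dCcs1 against 131 and 156, below both. SIP4 had 2.19 RPKM (1.45 to 3.19) in dCcs1 against 2.24 and 2.65, within counting error, and 4.31 (3.29 to 5.54) in H3H113N-dCcs1 against 7.63 and 8.32. CAT8 stood at 37.8 RPKM in dCcs1 against 7.12 and 26.6, and at 17.2 in H3H113N-dCcs1, between its libraries without copper at 8.14 and 21.8. With copper, SIP4 was higher and CAT8 lower in the H3H113N-dCcs1 library than in the dCcs1 library. These 2 libraries also differed in growth, labelled exponential for dCcs1 and very slow for H3H113N-dCcs1, so allele and growth state cannot be told apart between them. The dCcs1 libraries with and without copper differed in growth label too, so copper and growth state cannot be told apart there. In H3H113N-dCcs1 the growth label was very slow with and without copper, but only 1 library had copper.

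Over the 14 group means of log2(RPKM + 1), ADR1 and CAT8 were the most alike pair of members (Pearson r = 0.95), followed by HAP4 with CAT8 (0.93) and by ADR1 with HAP4 and with MIG1 (0.91 each), while SIP4 had r = 0.78 with CAT8. HAP1 had negative values with all other members, from -0.51 with HAP3 to -0.13 with CAT8. Among named ORFs, the nearest to HAP4 were NDI1, SDH1 and OM14 (0.97, 0.97 and 0.96), to CAT8 ACH1, OM45 and PUT4 (0.98 each), to SIP4 CIT3, EDS1 and HMS1 (0.98, 0.96 and 0.95), and to ADR1 MIX14 (0.97), MRX9 and IDP3. The nearest to HAP2 were PCL7, PET10 and ASR1 (0.98, 0.97 and 0.97), to HAP3 MRPL20, VBA5 and PSH1 (0.98, 0.97 and 0.96), to HAP5 PKP1, FUN14 and LEU5 (0.96 each), and to MIG1 UBX5, ECI1 and GLC8 (0.98, 0.95 and 0.95). HAP1 had no close match, with ABP140 first at 0.76. These values describe 14 points that share kits, media and libraries of unequal number, and the highest of many ORFs were kept.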

How the data were processed

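Per the labels, RNA from hot acid-phenol extraction was freed of DNA, enriched for poly(A)+ transcripts and read from 1 end over 50 nt; the strand kept by the kits was not used, so antisense transcription cannot be told apart. TopHat2 2.0.9 and the builds R64 and sacCer3 are named in the submitters' processing notes, without their roles; the counting tool is not given in the sources used here. The authors deposited raw counts and RPKM values per ORF; recomputing RPKM from the deposited counts matched within a relative difference of 3.82e-09. The 6592 ORFs averaging 1 RPKM or more, all 9 members among them, were fitted with edgeR 4.0.16 (R 4.3.3; TMM scaling, quasi-likelihood test, 1 mean per group) over the 26 libraries of 12 groups with replicates, after a check on simulated counts. The common biological coefficient of variation was 29.5% and 14 residual degrees of freedom remained. Calls are Benjamini-Hochberg adjusted p under 0.05 over all ORFs tested; fold changes are log2 on the edgeR scale. The SE was derived from the log2 fold change and its F statistic.

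Alternatives were DESeq2 1.42.0, limma 3.58.1 on log2(RPKM + 1), median-ratio scaling, library totals only, no filter or a mean RPKM of at least 5, only the groups compared, each chromosome centred, a replicate block, and leaving out each library. Replicate numbers paired WT and H3H113N in SC, where libraries of equal number deviated together (r = 0.53, 0.37 and 0.73). The values given for SC are nevertheless from the fit without this pairing. The 9 members are all named, list genes are the 3 called genes of largest change per list in 2 comparisons (WT in YPEG against SC, and H3H113N-dCcs1 against dCcs1 in SC-lys), and like genes the 3 with the highest r. Outside that rule, CTA1, SPS19, ADH2, ICL1, JEN1, MDH2, PIP2, TOS3, SNF4, LPD1 and COX4, and all list values in the average, were named after their values were seen. Members and lists were chosen, from textbook knowledge, with earlier results of these data known. Sequences are RefSeq R64, in which the ORF starts equal those of the authors' table for 9 of 9 members.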

Additional observations from a re-analysis of the deposited data

How the results depend on the processing

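Of the values for single members, 2725 kept their call and direction or, uncalled, moved by at most 1 SE, 112 uncalled values moved further, 52 lost and 44 gained a call, and HAP3 in the average of the H3H113N effects reversed with chromosomes centred (-0.0906). The members called in WT from YPD to YPEG were 5, and 8 with library totals and with limma (3 to 5 without single libraries); from SC to YPEG 2, 1 with only the groups compared and 4 with the replicate block (1 to 4); from YPD to SC 1, 3 with library totals and limma, 0 with only the groups compared and with the block (0 to 3). In H3H113N from SC to YPEG they were 3 (1 to 3 without single libraries), and in H3H113N-dCcs1 from SC to SC-lys 1, 0 with only the groups compared (0 to 1). Over the 6 H3H113N comparisons they were 3, with 5 by library totals, 6 by DESeq2, 1 with only the groups compared and 6 with the replicate block (2 to 4 without single libraries); in SC, where numbers paired the libraries, a block on WT and H3H113N left the count at 3. In the other H3H113N comparisons equal numbers also correlated positively, at 0.62 in YPD, 0.12 in YPEG and 0.20 with dCtr1. With dCcs1 the values were 0.45 in SC and 0.53 in SC-lys. Comparisons of deletions or media gave values down to -0.43. All these comparisons had at most 2 shared numbers and no label that ties them to a culture, so pairing was not settled. There the block called SIP4 in H3H113N-dCcs1 against dCcs1 in SC (2.17, edgeR adjusted p = 0.0131) and SC-lys (1.39, 0.00673), HAP3 in the latter (0.76, 0.0401), and from SC to YPEG ADR1 and CAT8 in WT (1.86 and 2.75) and HAP3 in H3H113N (0.67). From YPD to YPEG it called HAP5 in WT (0.97) and HAP4 in H3H113N (1.78), and it did not call ADR1 in WT from YPD to SC (1.48, 0.129). Crossing the numbers of dCtr1 and WT in YPD, whose equal numbers correlated at -0.43, left 0 members called. All other counts of members stayed within 1.5 times. List counts moved by more than that in 18 of their alternatives. DESeq2 called more of all ORFs than edgeR for H3H113N against its parent: 186 against 82 in YPD, 176 against 68 in YPEG, 235 against 105 in SC, 293 against 144 with dCtr1 and 233 against 82 with dCcs1 in SC. It also called 901 against 552 from YPD to SC in WT, 1090 against 720 from SC to YPEG in H3H113N and 649 against 398 from SC to SC-lys in dCcs1. Library totals moved the median of all ORFs most from YPD to YPEG in WT, from 0.02 to 0.58. List alternatives without single libraries and with chromosomes centred, the crossed pairing and the block on WT and H3H113N alone were chosen after seeing the data. The causes of these changes were not tested. SIP4 held 3 to 8 reads in WT glucose libraries, so depth limits its folds there, and groups of 2 libraries limit every single comparison.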
